A study of Mus musculus with 4 samples.

Results

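Sfrp1, a secreted antagonist of Wnt signalling, was described together with genes that respond to or carry the Wnt signal in embryonic stem cells of the mouse that lack the zinc finger gene Prdm14. The members were named as a set of 10 genes: Sfrp1, Dkk1, Axin2, Lef1, Tcf7, Tcf7l1, Sp5, Nkd1, Cdx1 and Ctnnb1. Of the 22180 genes with a value, 9 belonged to the set, with 10 probe sets among them, because Axin2 had 2. Tcf7 was paired with 0 probe sets in the platform annotation and has no value here, so it enters only the count of promoter sequences below. The members were chosen by name with earlier differences between these arrays in view, in particular the low Sfrp1 value on 1 array, so their differences are given as a description.

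Total RNA was hybridised to 4 GeneAtlas arrays of strip 2, with 1 array for each group. The cells of every group were Prdm14 knockouts kept in 2i medium, which holds 2 inhibitors, plus leukemia inhibitory factor on STO feeder cells, a fibroblast line. One group expressed PRDM14 of the mouse, another that of the sea urchin, and a further one the sea urchin protein plus sea urchin CBFA2T, while the control cells had an empty vector. CBFA2T belongs to a family of co-repressors that bind PRDM14. The labels name neither the promoter that drove the proteins nor whether a line was 1 clone. The targeted gene did not separate the arrays, with Prdm14 at 5.57 (log2) where the label says mouse PRDM14, at 5.77 where it says sea urchin PRDM14, at 5.53 with CBFA2T besides, and at 5.71 with the empty vector. The labels could thus not be checked from this gene, and every group name stands for the library labelled so.

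Wnt ligands bind Frizzled and LRP receptors at the cell surface and thereby stop a destruction complex, in which the kinase GSK3 marks beta-catenin for degradation. Stabilised beta-catenin enters the nucleus and acts with the TCF/LEF factors on target genes, several of which encode inhibitors of the pathway and so form negative feedback. One of the inhibitors of 2i medium blocks GSK3 itself, a step below the receptor. All 4 arrays share this medium, so its effect on the pathway could not be read here. In mouse embryonic stem cells the inhibition of GSK3 is known to relieve the repression of naive pluripotency genes by TCF7L1.

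The values are log2 RMA values, in which the distributions of the arrays were made equal, and a difference of 1 is 2-fold. With 1 array a group there is no replicate error and no test, and differences were called at 2-fold by size. The precision is limited by how few arrays there are. The 3 comparisons with the empty vector share its array, as the other comparisons share theirs. Over all 22180 genes the SD of the log2 differences lay between 0.15 and 0.18 in the 6 comparisons, which serves here only as a picture of how far genes in general lay apart. The 10 embryonic stem cell markers, Pou5f1, Sox2 and Nanog among them, all reached 4.84 on each array, which is the median over the probe sets that have a gene name. Of 13 fibroblast markers, 9 were at or above it on each array, and Dcn, Lum, Postn and S100a4 were below it on all 4.

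Sfrp1 was the member that differed most. SFRP1 is a secreted protein with a Frizzled-like domain that binds Wnt ligands outside the cell. The Sfrp1 probe set was at 8.28 with mouse PRDM14, at 7.97 with sea urchin PRDM14 and at 6.89 with sea urchin PRDM14 and CBFA2T, against 8.49 with the empty vector. The array with CBFA2T was the lowest and stood apart from the other 3, which lay within 0.52 of one another.

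The log2 difference of Sfrp1 from the empty vector was -1.61 with sea urchin PRDM14 and CBFA2T, a 3.04-fold lower level. It was -0.52 with sea urchin PRDM14 alone (1.44-fold lower) and -0.21 with mouse PRDM14 (1.16-fold lower). Sfrp1 was thus below the empty vector on all 3 PRDM14 arrays, and past 2-fold on 1 of them, the CBFA2T array, where 0.0271% of all genes were at least 2-fold lower. Among all genes it had the second lowest difference of the CBFA2T array from the empty vector (rank 2 of 22180). With sea urchin PRDM14 alone it was rank 52 from the lowest, and with mouse PRDM14 rank 1583. Against mouse PRDM14 the difference was -1.40 on the CBFA2T array (2.63-fold lower, rank 2) and -0.32 on the sea urchin PRDM14 array. Between the sea urchin arrays it was -1.08 with CBFA2T against without (2.12-fold lower, rank 4). In total RNA of a culture, fewer cells that express a gene and less of its RNA per cell cannot be told apart.

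Other cell types were read on the same arrays. The summed linear signal of the 13 fibroblast markers was 560.9 with mouse PRDM14, 562.5 with sea urchin PRDM14, 563.4 with CBFA2T added and 563.4 with the empty vector. None of the 13 was above 6.17 on any array, and the part of feeder cells in the Sfrp1 difference was not tested. The 9 primitive endoderm markers summed to 436 with mouse PRDM14, 472 with sea urchin PRDM14, 459 with CBFA2T added and 483 with the empty vector. The 9 markers of 2-cell-like cells, a rare state of these cultures, summed to 181, 160 and 947 on the mouse PRDM14, sea urchin PRDM14 and CBFA2T arrays, against 160 on the empty vector array. This sum was thus high on the array on which Sfrp1 was low. Of the 9, 5 were at least 2-fold above the empty vector there, as were 0.0947% of all genes. These were Zscan4b, Zscan4c, Zscan4d and Zscan4e, which are of 1 gene family, and Usp17le. Zfp352 differed by -0.14, and Zfp352, Tcstv1 and Tcstv3 were below 4.84 on every array. The part of 2-cell-like cells in the Sfrp1 difference was not tested.

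**Figure D1:**
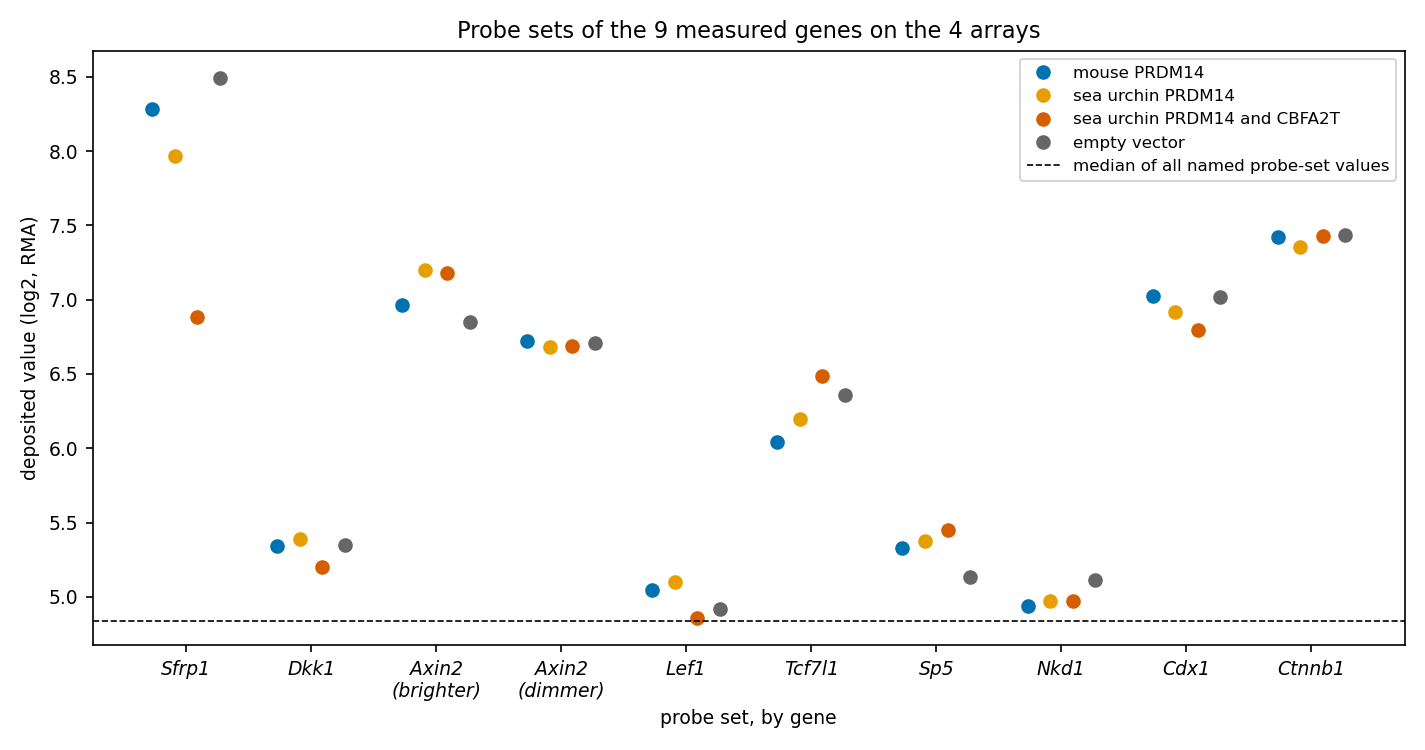
Deposited log2 RMA values of the 10 probe sets of the 9 measured genes, with 1 point for each array and the dashed line at the median of the named probe sets (4.84). Sfrp1 runs between 8.49 and 6.89, while every other probe set stays within 0.44 over the 4 arrays.

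Dkk1, which encodes a secreted antagonist that binds the co-receptor LRP6, was at 5.34 with mouse PRDM14, 5.39 with sea urchin PRDM14 alone and 5.20 with CBFA2T added, against 5.35 with the empty vector. It was lowest on the array on which Sfrp1 was lowest, but by only -0.15 against the empty vector. A larger absolute difference in that comparison was seen in 29.2% of all genes.

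Of 12 other genes for secreted antagonists, none was 2-fold apart in any of the 6 comparisons. The closest relatives of Sfrp1, which are Sfrp2, Sfrp4, Sfrp5 and Frzb, lay between 3.28 and 5.44 and had a largest absolute difference of 0.28, in Sfrp4. The antagonist with the largest difference was Notum, an enzyme that removes the lipid from Wnt ligands and is itself a Wnt target. Notum was at 5.55 with mouse PRDM14, 5.43 with sea urchin PRDM14 alone and 5.92 with CBFA2T added, against 5.31 with the empty vector. It was highest on the array on which Sfrp1 was lowest, with a log2 difference of 0.61 from the empty vector.

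Ctnnb1, which encodes beta-catenin, was the steadiest member. Its value was 7.42 with mouse PRDM14, 7.36 with sea urchin PRDM14 alone and 7.43 with CBFA2T added, against 7.43 with the empty vector. Its range of 0.08 was smaller than that of 91.7% of all genes. GSK3 acts on the beta-catenin protein, which these arrays do not measure.

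Of the TCF/LEF factors, Tcf7l1, whose protein acts mainly as a repressor in embryonic stem cells, had the widest range. It was at 6.04 with mouse PRDM14, 6.20 with sea urchin PRDM14 alone and 6.49 with CBFA2T added, against 6.36 with the empty vector. The array with CBFA2T was thus the highest and the mouse PRDM14 array the lowest, 0.44 apart (1.36-fold), and 4.26% of all genes had a wider range. The difference from the empty vector was -0.32 with mouse PRDM14, -0.17 with sea urchin PRDM14 alone and 0.13 with CBFA2T added. CBFA2T with sea urchin PRDM14 against sea urchin PRDM14 alone gave 0.29, opposite to the direction of Sfrp1.

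Lef1, which encodes a TCF/LEF factor that is also a Wnt target, was dim. It was at 5.05 with mouse PRDM14, 5.10 with sea urchin PRDM14 alone and 4.86 with CBFA2T added, against 4.92 with the empty vector. On the CBFA2T array it lay just above that median of 4.84, and a dim value is pulled toward a background that all arrays share. Its largest difference was -0.24, between the CBFA2T array and sea urchin PRDM14 alone.

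The target genes of the pathway had no common direction. Axin2, a scaffold of the destruction complex and a common readout of Wnt activity, was at 6.96 with mouse PRDM14, 7.20 with sea urchin PRDM14 alone and 7.18 with CBFA2T added, against 6.85 with the empty vector, by its brighter probe set. Both sea urchin arrays were higher than the empty vector, by 0.35 and 0.33 (1.27-fold and 1.26-fold), and differed from each other by -0.02. The dimmer Axin2 probe set was at 6.72 with mouse PRDM14, 6.68 with sea urchin PRDM14 alone and 6.69 with CBFA2T added, against 6.71 with the empty vector. This probe set did not show the difference, and its range over the arrays was 0.04.

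Axin2 lies on chromosome 11, whose genes were slightly higher on both sea urchin arrays. Over its 1649 genes, the median difference from the empty vector was 0.0376 for sea urchin PRDM14 alone and 0.0463 where CBFA2T was added, beside -0.0035 and -0.0023 for genes elsewhere. Over the 1067 of them that reached 4.84 on at least 1 array it was 0.0571 and 0.0652, beside 0.0014 and 0.0008 elsewhere. With mouse PRDM14 it was -0.0047 over the 1649 genes and -0.0026 elsewhere. Notum is on chromosome 11 too. The part of this shift in the Axin2 and Notum differences was not tested. Other chromosomes were not read separately, so the shift cannot be called particular to chromosome 11.

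Sp5, a zinc finger gene that beta-catenin activates directly, was at 5.33 with mouse PRDM14, 5.38 with sea urchin PRDM14 alone and 5.45 with CBFA2T added, against 5.13 with the empty vector. All 3 PRDM14 arrays were higher than the empty vector, by 0.20, 0.25 and 0.32 (1.15-fold to 1.25-fold). Every Sp5 value was below 5.65, the 75th percentile of the named probe-set values, so Sp5 was rather dim. Sp5 and the brighter Axin2 probe set were the only members whose lowest value was on the empty vector array.

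The promoters of Axin2, Sp5 and Dkk1 are shown because Axin2 and Sp5 were the members lowest with the empty vector, and because Sp5 and Dkk1 hold letters that TCF/LEF factors can bind. The windows run from 250 bases before to 50 after the start of transcription in RefSeq on GRCm38.p6, 5′ to 3′ on the strand of the gene, at chr11:108920099-108920398 (plus strand) for Axin2, chr2:70474673-70474972 (plus) for Sp5 and chr19:30549447-30549746 (minus) for Dkk1. Capitals mark TCF/LEF heptamers on either strand, which are the letters CTTTG followed by bases that are each A or T. The 4 heptamers were searched separately, with overlaps allowed.
Axin2: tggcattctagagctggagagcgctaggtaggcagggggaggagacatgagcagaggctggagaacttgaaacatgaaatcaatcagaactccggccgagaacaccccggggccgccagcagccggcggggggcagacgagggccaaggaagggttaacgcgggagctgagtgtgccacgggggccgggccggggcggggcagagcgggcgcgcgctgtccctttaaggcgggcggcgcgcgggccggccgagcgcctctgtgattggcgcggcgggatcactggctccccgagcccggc
Sp5: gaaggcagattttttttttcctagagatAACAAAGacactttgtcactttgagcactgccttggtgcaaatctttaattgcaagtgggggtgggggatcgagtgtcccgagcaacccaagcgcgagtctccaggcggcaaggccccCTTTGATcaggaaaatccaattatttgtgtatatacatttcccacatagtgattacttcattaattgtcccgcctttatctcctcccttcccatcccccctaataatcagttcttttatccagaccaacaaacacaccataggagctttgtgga
Dkk1: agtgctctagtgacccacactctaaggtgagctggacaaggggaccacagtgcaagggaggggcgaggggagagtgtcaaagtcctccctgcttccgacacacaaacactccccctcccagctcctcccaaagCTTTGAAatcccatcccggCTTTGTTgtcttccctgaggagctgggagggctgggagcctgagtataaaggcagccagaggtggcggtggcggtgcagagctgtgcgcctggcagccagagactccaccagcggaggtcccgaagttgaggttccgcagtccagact

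Sp5 held 2 heptamers, of which the CTTTGAT begins 104 bases before the start, and Dkk1 held 2, beginning 117 and 98 bases before it. The Axin2 window held 0. A heptamer was present in 16.9% of all 32851 such windows, and CTTTGAT in 3.73%. The table held 13 windows of 8 members, Tcf7 among them, and 3 of the 13 (23.1%), 1 each of Sp5, Dkk1 and Lef1, had a heptamer. It held no window of Sfrp1 or Cdx1, so the promoters of these members were not searched. The letters are a description of these windows and say nothing of binding.

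Nkd1, whose product binds Dishevelled and dampens the signal, was at 4.94 with mouse PRDM14, 4.97 with sea urchin PRDM14 alone and 4.97 with CBFA2T added, against 5.12 with the empty vector. It was lower than the empty vector on all 3 PRDM14 arrays, with differences of -0.18, -0.14 and -0.15, opposite to Sp5. Cdx1, a caudal homeobox gene induced by Wnt in the gastrulating embryo, was at 7.02 with mouse PRDM14, 6.92 with sea urchin PRDM14 alone and 6.79 with CBFA2T added, against 7.02 with the empty vector. It was lowest on the CBFA2T array, by -0.22 against the empty vector, a difference that 13.6% of all genes exceeded in size.

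**Figure D2:**
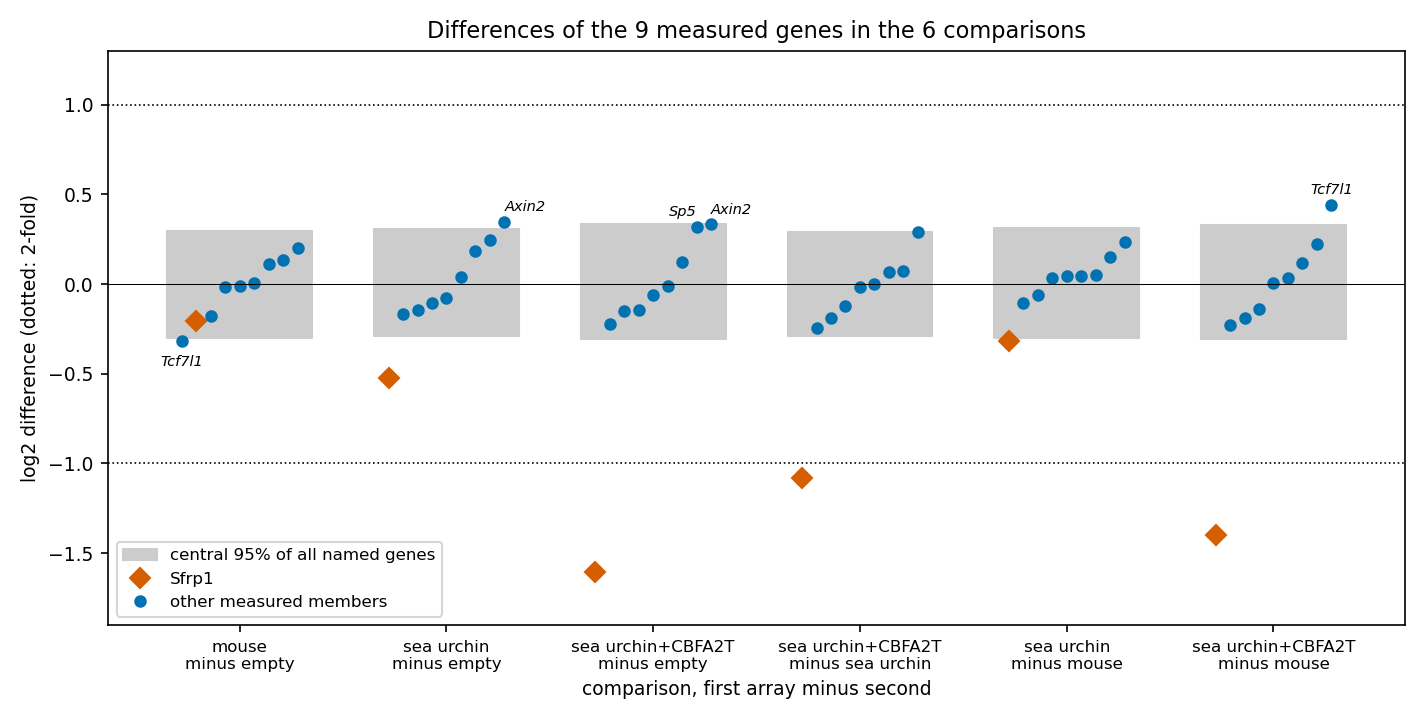
Log2 differences of the 9 measured genes in the 6 comparisons, the first array minus the second, with 1 point a gene. Grey boxes span the central 95% of all 22180 genes and dotted lines mark 2-fold. Sfrp1 is past 2-fold in the 3 comparisons whose first array is the one with CBFA2T, and the largest difference of any other member is 0.44, in Tcf7l1.

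Across the set, 0 of 9 members were 2-fold apart between mouse PRDM14 and the empty vector, where 0.0451% of all genes were. Between sea urchin PRDM14 and the empty vector it was also 0 of 9, beside 0.018% of all genes. With sea urchin PRDM14 and CBFA2T against the empty vector 1 of 9, Sfrp1, was at least 2-fold lower, beside 0.0271% of all genes. Sfrp1 was likewise the 1 member at least 2-fold lower on the CBFA2T array than with sea urchin PRDM14 alone (0.0271% of all genes) and than with mouse PRDM14 (0.0316%). Between sea urchin PRDM14 and mouse PRDM14 it was 0 of 9, beside 0.0361% of all genes in either direction. Since Sfrp1 was known to be low on this array when the set was chosen, these shares carry nothing further about the set.

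Without Sfrp1 the members had no shared direction. Of the other 8, 4 were above and 4 below the empty vector with mouse PRDM14, with a median difference of -0.003. With sea urchin PRDM14 it was again 4 and 4, with a median of -0.02. With CBFA2T added 3 were above and 5 below, with a median of -0.03, between -0.22 in Cdx1 and 0.33 in Axin2. The median over all genes was between -0.0028 and 0.0005 in these comparisons.

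The rest of the pathway was read from 8 lists with 107 measured genes of 110, which were chosen with earlier results of these arrays known. None of the 107 was 2-fold apart in any of the 6 comparisons. At 1.5-fold, 2 genes were apart between the CBFA2T array and the empty vector, Notum higher and Fzd7 lower. That is 1.87% of the 107, beside 0.555% of all genes. With mouse PRDM14 or sea urchin PRDM14 alone against the empty vector it was 0 genes, as between the CBFA2T array and mouse PRDM14. Between sea urchin PRDM14 and mouse PRDM14 it was Lgr4 and Tfcp2l1 (1.87%), and between the sea urchin arrays Lgr4 (0.935%). A 1.5-fold share of all genes is given only where Notum and Fzd7 were apart. Whether the remaining 1.5-fold counts are high or low beside all genes therefore cannot be read here. The median difference of the 107 genes from the empty vector was 0.02 with mouse PRDM14, -0.004 with sea urchin PRDM14 alone and -0.04 with CBFA2T added.

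The 19 Wnt ligand genes had median differences from the empty vector of -0.03 for mouse PRDM14, -0.06 for sea urchin PRDM14 and -0.04 where CBFA2T was added. The largest single ligand difference was in Wnt16, at 3.58, 3.47 and 3.64 on these arrays against 3.90 with the empty vector, all below 4.84 and so dim. The 18 receptor genes had medians of 0.07, 0.02 and -0.05. The most one-sided receptor count was between the CBFA2T array and mouse PRDM14. There 15 of the 18 were lower on the CBFA2T array, with a median of -0.13. Over all genes 50.7% were higher in that comparison, with a median of 0.0025. Between mouse PRDM14 and the empty vector, 14 of the 18 were higher with mouse PRDM14, beside 49.2% of all genes. Both comparisons share the mouse PRDM14 array. Of the 18 receptor genes, 12 reached 4.84 on at least 1 array.

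Fzd7, a Frizzled receptor gene of embryonic stem cells, had the largest difference among the receptors. It was at 4.16 with mouse PRDM14, 4.27 with sea urchin PRDM14 alone and 3.96 with CBFA2T added, against 4.64 with the empty vector. It was lower than the empty vector on all 3 PRDM14 arrays, with differences of -0.48, -0.37 and -0.68, and below 4.84 on every array.

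Among 9 genes of R-spondins, which strengthen the Wnt signal, and of their receptors, Lgr4 differed most. Lgr4, an R-spondin receptor gene, was at 5.88 with mouse PRDM14, 6.51 with sea urchin PRDM14 alone and 5.86 with CBFA2T added, against 6.14 with the empty vector. The sea urchin PRDM14 array was the highest, 0.63 above mouse PRDM14, and the CBFA2T array differed from it by -0.65. Znrf3, a ubiquitin ligase gene that removes Frizzled receptors and is a Wnt target, was picked after its values were seen. It was at 4.86 with mouse PRDM14, 4.89 with sea urchin PRDM14 alone and 5.18 with CBFA2T added, against 4.75 with the empty vector. The empty vector value is below 4.84, so Znrf3 was dim. Of the 9 genes, 3 were above and 6 below the empty vector with CBFA2T added, with a median of -0.06. Znrf3 is on chromosome 11, as are Notum and Axin2. Of the pathway list genes on that chromosome, Sost, Wnt9a and Fzd2 were below the empty vector on the CBFA2T array and the others above it.

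Of 14 measured genes of signal transduction and the destruction complex, 8 were above and 6 below the empty vector with CBFA2T added, with a median of 0.03. Csnk1e, a casein kinase gene, differed most, at 5.30 with mouse PRDM14, 5.21 with sea urchin PRDM14 alone and 4.92 with CBFA2T added, against 5.41 with the empty vector. Of 13 nuclear partners of beta-catenin and TCF, Tle4, a Groucho co-repressor gene, differed most. It was at 6.36 with mouse PRDM14, 6.41 with sea urchin PRDM14 alone and 5.95 with CBFA2T added, against 6.07 with the empty vector.

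Other Wnt target genes were as mixed as the members. Of 17 measured, 9 were above the empty vector with mouse PRDM14, 10 with sea urchin PRDM14 alone and 6 with CBFA2T added. The medians were 0.04, 0.004 and -0.03. Over all genes, 49.2%, 49.6% and 50.1% were above the empty vector on these arrays. Ccnd1, the cyclin D1 gene, had the largest difference. It was at 6.54 with mouse PRDM14, 6.43 with sea urchin PRDM14 alone and 6.40 with CBFA2T added, against 6.13 with the empty vector, so it was lowest with the empty vector, as Sp5 was.

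**Figure D3:**
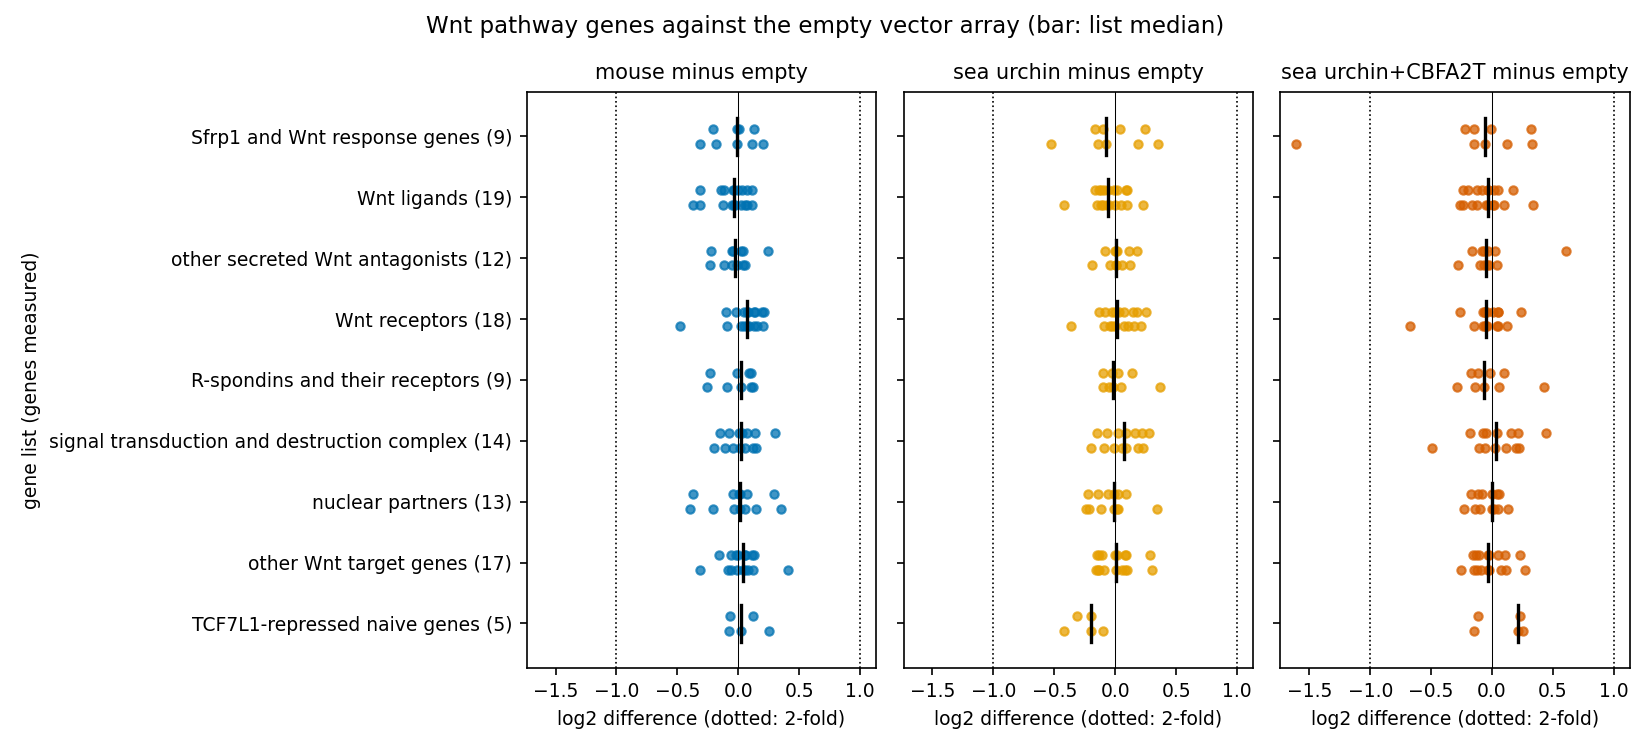
Log2 differences of the mouse PRDM14, sea urchin PRDM14 and CBFA2T arrays from the empty vector array, with 1 point a gene, a bar at each list's median and the number of measured genes in brackets. Sfrp1 is the 1 gene beyond the dotted 2-fold lines, at -1.61 in the right panel.

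A last list held 5 naive pluripotency genes that TCF7L1 is known to repress, Esrrb, Nanog, Tfcp2l1, Klf2 and Nr5a2. With sea urchin PRDM14 5 of 5 were below the empty vector, with a median of -0.20, while 49.6% of all genes were above it, with a median of -0.001. With CBFA2T added 3 of 5 were above it, with a median of 0.21, and with mouse PRDM14 3 of 5, with a median of 0.02. Tfcp2l1, a transcription factor gene of the naive state, differed most, at 7.60 with mouse PRDM14, 6.93 with sea urchin PRDM14 alone and 7.21 with CBFA2T added, against 7.35 with the empty vector. Between the sea urchin arrays, 5 of 5 were higher with CBFA2T, with a median of 0.33, where 50.6% of all genes were higher and their median was 0.002. Tcf7l1 itself was higher by 0.29. The 10 embryonic stem cell markers, which include Nanog and Esrrb, were split between these arrays, with 5 higher, 5 lower and a median of 0.007. With sea urchin PRDM14 against the empty vector, however, 8 of these 10 markers were below and 2 above, with a median of -0.04. The lower side was thus not particular to the naive genes there. None of the 5 naive genes was 2-fold apart. The comparisons of sea urchin PRDM14 with the empty vector and with the CBFA2T array share 1 array.

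The genes whose profile over the 4 arrays was nearest to that of Sfrp1 were sought among 12041 genes that reached 4.84 on at least 1 array. The measure was the Euclidean distance between values centred on each gene's own mean, and its median over these genes was 1.25. Genes that hardly differ between the arrays lie far from Sfrp1 by construction. That median therefore does not show how unusual a small distance is. Apela, a peptide hormone gene, was the nearest with a distance of 0.20, followed by Trh, the thyrotropin-releasing hormone gene, with 0.35. Cth, an enzyme gene of cysteine synthesis, had 0.61, Laptm5, a lysosomal membrane protein gene, had 0.66, and Btbd35f17, a BTB domain gene of the X chromosome, had 0.67.

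Apela was at 4.74 with mouse PRDM14, 4.34 with sea urchin PRDM14 alone and 3.32 with CBFA2T added, against 5.14 with the empty vector. It thus kept the order of Sfrp1 over the 4 arrays, but at dim values, and it reached 4.84 on the empty vector array alone. Btbd35f17 likewise reached it on 1 array, that with mouse PRDM14 (5.20). Trh was bright, at 7.26 with mouse PRDM14, 7.41 with sea urchin PRDM14 alone and 6.05 with CBFA2T added, against 7.58 with the empty vector. Its mouse PRDM14 and sea urchin PRDM14 values were in the opposite order to those of Sfrp1. None of the 5 nearest genes belongs to the Wnt lists or to the set.

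**Figure D4:**
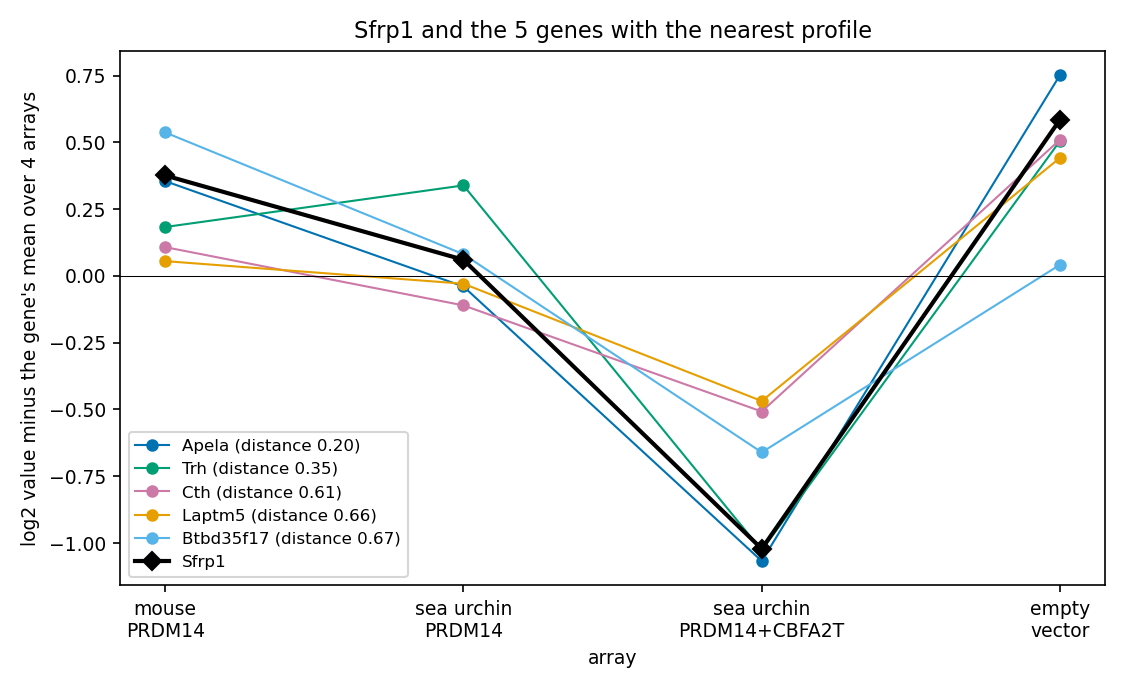
Log2 values of Sfrp1 and the 5 genes with the smallest distance to it, each minus its own mean over the 4 arrays. Lines join the points of a gene and mark no order of the arrays. All 6 genes are lowest on the array with CBFA2T, and the distances run between 0.20 and 0.67.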

How the data were processed

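The authors made the deposited values with RMA, per the submitters' processing notes, and they lie on a log2 scale. RMA corrects background, equalises array distributions and summarises probe sets. The sources used here do not give its version, the genome build or which arrays were normalized together. Array medians lay between 4.54 and 4.55, so a shift of most genes would not show, and RMA gives no detection call.

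Of 41345 probe sets, 23521 were paired with 1 gene, 1814 with several and 16010 with none in the platform annotation. For a gene, the probe set brightest on average was taken. RefSeq tables of GRCm38.p6 gave chromosomes and promoters.

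Counts and medians over the members and lists had no filter on dim genes. The search for profiles like Sfrp1, and a second chromosome 11 median, kept genes that reached 4.84 on at least 1 array, so a gene could enter through 1 bright array. Groups follow the labels. The 6 comparisons were differences between single arrays, called at 2-fold. The members and lists were chosen with earlier results of these data known. Named genes were all members, the gene with the largest absolute difference of each pathway list, since no gene of those lists passed 2-fold, and the 5 genes nearest to Sfrp1. Znrf3 was added after its values were seen. The code that makes the calls was checked on simulated arrays, which gives no error rate for the real ones. Tools were R 4.3.3 with limma 3.58.1 (cyclic loess) and Python 3.11.15 with numpy 2.4.6, pandas 2.3.3 and matplotlib 3.10.9.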

Additional observations from a re-analysis of the deposited data

How the results depend on the processing

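The number of members past 2-fold did not change in any of the 6 comparisons when only genes that reached 4.84 on at least 1 array were kept (9 members), with a stricter filter at 5.65, the 75th percentile (5 members), at 1.5-fold, after cyclic loess between the arrays, or with probe sets of a gene averaged. The difference of Sfrp1 between sea urchin PRDM14 with CBFA2T and the empty vector was -1.61 and became -1.63 after cyclic loess. The other settings could not change it, because Sfrp1 has 1 probe set and filters and thresholds leave the values as they are. Of 54 member differences, 1 changed sign, that of Ctnnb1 between the CBFA2T array and mouse PRDM14, which was 0.005 and became -0.003 after cyclic loess. Averaging could change only Axin2, since every other member has 1 probe set. With its probe sets averaged, Axin2 differed from the empty vector by 0.16 on both sea urchin arrays, beside 0.35 and 0.33. No paired analysis was possible because each group had 1 array, and for the same reason no array could be left out. Lef1 and Nkd1 lay closest to 4.84, which is a median and not a background level. Dkk1, Sp5, Lef1 and Nkd1 were all below 5.65 on every array. For these genes signal over background limits what the arrays can show.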
